A study of Mus musculus with 62 samples.

Results

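The genes described here carry dopamine and adenosine signals into the cAMP cascade of striatal projection neurons. They are the receptor genes Drd1, Drd2, Drd3 and Adora2a, the G protein gene Gnal, the adenylyl cyclase gene Adcy5, the phosphodiesterase gene Pde10a, the gene of the phosphoprotein DARPP-32 (Ppp1r1b) and the regulator of G protein signalling Rgs9. They were chosen by name, as the rows of the count table whose Ensembl identifiers map to these 9 symbols. Of the 9 named genes, 8 were among the 11121 genes with counts. Drd3 was not analysed here.

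Brain tissue of mice came from 2 regions, the prefrontal cortex (PFC) and the ventral striatum, or nucleus accumbens (NAc). Their RNA was read from the 3′ end by BRB-seq, where barcoded oligo-dT primers mark each sample before pooling. The mice were wild-type C57BL/6j males of 15 weeks. One group was exposed to multimodal chronic restraint stress (mCRS), daily restraint in tubes under changing light, noise and timing, and the other was left unstressed (CTR). The PFC gave 15 CTR and 15 mCRS libraries, and the NAc gave 16 CTR and 16 mCRS libraries. Both regions came from one hemisphere of each animal, and the sources used here do not state which PFC and NAc libraries come from the same mouse. Each library is one animal's tissue, so a lower level in such bulk tissue could mean fewer cells of a type or less RNA per cell, and these cannot be told apart here. Library totals ran from 945286 to 4857359 counts.

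Striatal projection neurons form 2 populations. Neurons of the direct pathway carry the Drd1 receptor, which couples through the olfactory-type G protein (Gnal) to adenylyl cyclase 5 and raises cAMP, while neurons of the indirect pathway carry Drd2, which lowers cAMP, and the adenosine receptor encoded by Adora2a, which raises it. Phosphodiesterase 10A breaks cyclic nucleotides down, DARPP-32 becomes an inhibitor of protein phosphatase 1 once protein kinase A has phosphorylated it, and Rgs9 speeds the shut-off of the inhibitory G proteins that Drd2 uses. The cortex receives dopamine as well, but its excitatory neurons express most of these genes at lower levels than the striatum does.

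Positions are given in GRCm38, the build to which the authors mapped their reads. In the GENCODE annotation Drd1 spans chr13:54051183-54055705 on the minus strand, Drd2 chr9:49340627-49408177 on the plus strand, Adora2a chr10:75316877-75334784 on the plus strand and Ppp1r1b chr11:98348404-98357796 on the plus strand. Adcy5 spans chr16:35154877-35305738 and Pde10a chr17:8525372-8986648, both on the plus strand, and Rgs9 spans chr11:109225355-109298129 on the minus strand. Gnal overlaps Chmp1b on the same strand, a gene that is also in the table, so reads in the overlap are uncertain for both.

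The sequences before the start sites are shown because these genes share one expression pattern across the regions, and a reader may want to compare what lies upstream of them. RefSeq promoter windows (GRCm38.p6) were at hand for 5 of the genes, Drd1, Drd2, Adcy5, Pde10a and Rgs9, in 7 windows of 250 bases before a start site. Printed are those for the start sites at the outer end of the gene, without bases inside the annotated gene. They are chr13:54055706-54055908 (Drd1, minus strand), chr9:49340153-49340402 (Drd2, plus strand), chr16:35154614-35154863 (Adcy5, plus strand) and chr11:109298182-109298431 (Rgs9, minus strand), each read 5′ to 3′ on the strand of the gene. Capitals mark matches to the GC box GGGCGG or the TATA box TATAAA on either strand.
Drd1: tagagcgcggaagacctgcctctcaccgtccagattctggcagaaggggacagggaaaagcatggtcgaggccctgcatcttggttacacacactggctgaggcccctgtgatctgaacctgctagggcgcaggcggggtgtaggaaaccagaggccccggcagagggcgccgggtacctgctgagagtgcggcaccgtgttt
Drd2: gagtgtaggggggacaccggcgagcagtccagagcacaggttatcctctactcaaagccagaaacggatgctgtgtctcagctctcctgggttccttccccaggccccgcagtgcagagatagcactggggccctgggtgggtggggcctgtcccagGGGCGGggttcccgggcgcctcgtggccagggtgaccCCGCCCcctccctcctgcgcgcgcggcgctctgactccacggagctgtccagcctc
Adcy5: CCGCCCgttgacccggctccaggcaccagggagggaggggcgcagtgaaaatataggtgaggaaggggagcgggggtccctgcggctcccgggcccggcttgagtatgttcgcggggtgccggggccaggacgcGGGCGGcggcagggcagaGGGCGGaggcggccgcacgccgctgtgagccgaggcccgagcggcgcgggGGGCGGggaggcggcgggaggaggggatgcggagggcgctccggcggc
Rgs9: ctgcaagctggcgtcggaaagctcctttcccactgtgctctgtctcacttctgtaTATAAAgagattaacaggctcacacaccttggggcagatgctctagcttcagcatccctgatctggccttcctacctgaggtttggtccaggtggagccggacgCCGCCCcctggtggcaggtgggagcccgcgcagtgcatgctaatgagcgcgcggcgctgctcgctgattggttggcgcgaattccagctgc

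The printed windows are rich in G and C, which made up 64.0% of the 250 bases before the outer Drd1 start, 68.8% for Drd2, 78.0% for Adcy5 and 59.6% for Rgs9, beside a median of 52.4% over 32851 RefSeq windows of the same length. All 7 windows lay above that median. The window of Drd2 held 2 GC boxes, that of Adcy5 held 4 and that of Rgs9 held 1, while the outer window of Drd1 held none. Over all windows, 32.7% held a GC box. TATAAA occurred in 1 of the 7 windows, that of Rgs9, and in 12.4% of all windows. The cAMP response element TGACGTCA and its shorter core TGACG, which the full element contains, were searched on both strands and had 0 matches in the 7 windows, beside 1.55% and 17.8% of all windows. A match or its lack describes these letters only.

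Before the groups were compared, each library was set against marker lists of the tissue and its neighbours. Levels are given as CPM, the count of a gene scaled by the size of its library, after TMM normalization over all 62 libraries. The level of each gene was compared between groups and never with that of another gene. The markers followed the labelled region in all libraries but 1. The summed level of 19 striatal markers other than the 8 genes had a median of 1512 CPM in PFC CTR and 1424 CPM in PFC mCRS, against 6085 CPM in NAc CTR and 5514 CPM in NAc mCRS libraries. The summed level of 15 cortical excitatory markers ran the other way, with medians of 9699.8 CPM in PFC CTR, 8420 CPM in PFC mCRS, 2489 CPM in NAc CTR and 2577 CPM in NAc mCRS.

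The library NAc CTR 7 stood apart. Its striatal markers summed to 957 CPM, which lies within the range of the PFC libraries, from 757 to 2162 CPM, whereas the other NAc libraries began at 3528 CPM. Its cortical markers, at 1158 CPM, were the lowest of all 62 libraries, while the summed level of the hypothalamic neuropeptide genes Avp, Oxt, Trh and Gal was 2611 CPM, above the 835 CPM of the next NAc library. Its total of 2282186 counts was well inside the range of the others. The label was kept, and several results are given with and without this library. Where no value without it is printed, as for medians and coefficients of variation, the library is included. It had the lowest level of the NAc CTR libraries for each of the 8 genes. One library of stressed mice, NAc mCRS 10, had 24068 CPM from 4 choroid plexus markers, against at most 460 CPM in the other NAc libraries, and a summed level of the 8 genes of 2480 CPM, inside the range of its group.

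The 8 genes together were several-fold more abundant in the NAc. Their summed level was 567 CPM at the median of PFC CTR libraries (lowest 297, highest 956) and 519 CPM at that of PFC mCRS libraries (lowest 340, highest 978). In the NAc it was 3090 CPM in CTR (lowest 543, in NAc CTR 7, and highest 5079) and 2790 CPM in mCRS (lowest 1836, highest 3759). Apart from NAc CTR 7, no NAc library came down to the highest PFC library, and the next lowest CTR library of the NAc was at 2298 CPM.

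**Figure D1:**
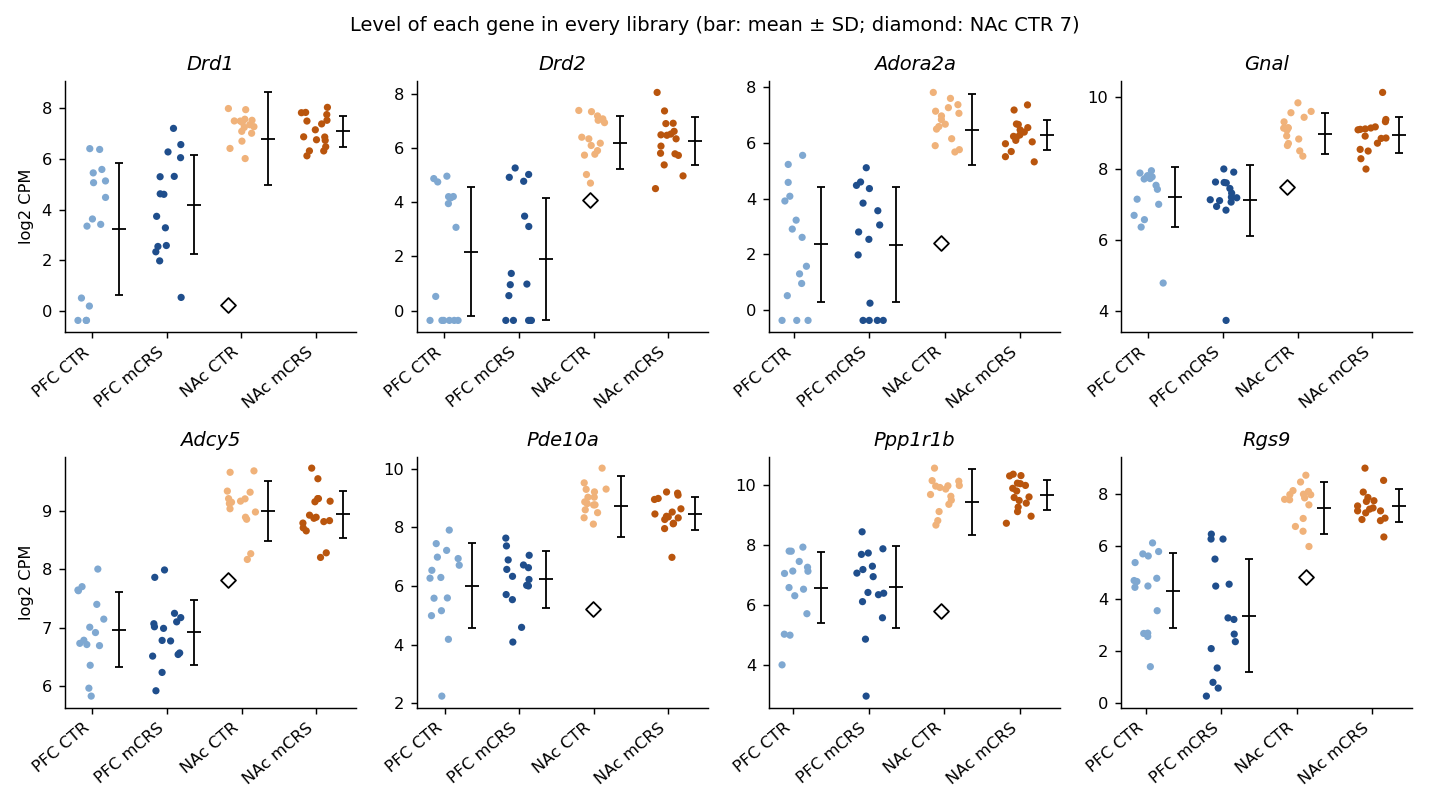
Level of each of the 8 genes in every library, as log2 CPM (y axis), for the 15 PFC CTR, 15 PFC mCRS, 16 NAc CTR and 16 NAc mCRS libraries (x axis). Points are libraries, bars beside them the mean ± SD, and the open diamond is NAc CTR 7, the one NAc library that falls among or close to the PFC libraries for all 8 genes; the vertical scales differ between genes.

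Region was tested among CTR libraries and, separately, among mCRS libraries with edgeR's quasi-likelihood test, with p-values adjusted by Benjamini-Hochberg over all genes tested (FDR). Of 9932 genes tested in CTR, 208 were higher in the NAc at an FDR below 0.05 (2.09%) and 420 were lower (4.23%). Among mCRS libraries 196 of 9452 genes were higher (2.07%) and 400 were lower (4.23%). All 8 signalling genes had enough counts to be tested and were higher in the NAc in both tests. Their median log2 fold change was 2.67 in CTR and 2.40 in mCRS, beside 0.018 and 0.031 over all genes tested. The test again called 8 of 8 without NAc CTR 7. DESeq2 also called 8 of 8 in both treatments, but placed the calls over all genes more evenly, with 420 of 900 higher in the NAc in CTR and 443 of 903 in mCRS. Among the libraries numbered 1 to 8, to which NAc CTR 7 belongs, edgeR called 5 of 8 in CTR, and Drd1, Drd2 and Adora2a were not among them.

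Drd1, the dopamine receptor of direct pathway neurons, was low and scattered in the PFC and steadier in the NAc, NAc CTR 7 aside. In PFC CTR libraries it ranged from 0 to 83.6 CPM with a median of 11.6, and 3 of the 15 libraries had no read. A count of 0 allows up to 3 reads, at most 1.93 CPM in these libraries, and such limits cover counting error only. PFC mCRS libraries ran from 0.678 to 146 CPM with a median of 23.5. In NAc CTR libraries Drd1 ran from 0.406 CPM, a single read in NAc CTR 7, to 251 CPM with a median of 157, and the next lowest library was at 63.6 CPM. NAc mCRS libraries ran from 68.6 to 260 CPM with a median of 128. The regions overlapped in both treatments. Drd1 was 5.95-fold higher in the NAc of CTR mice (95% confidence interval 2.74 to 12.9), a log2 fold change of 2.57 ± 0.56 (SE, FDR = 0.00105 in edgeR). In mCRS mice the difference was 4.0-fold (interval 2.15 to 7.43, FDR = 0.00135). Without NAc CTR 7 the log2 fold change in CTR was 2.65 ± 0.52 (SE).

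Drd2, the dopamine receptor of indirect pathway neurons and the one that inhibits cAMP formation, was near the limit of detection in the PFC. PFC CTR libraries ran from 0 to 30.4 CPM with a median of 7.65, and 6 of 15 held no read. PFC mCRS libraries ran from 0 to 37.7 CPM with a median of 1.19, and 5 of 15 held no read, which allows up to 1.51 CPM in those CTR libraries and 2.12 CPM in those mCRS libraries. All Drd2 reads of the PFC came to 411 in CTR and 317 in mCRS libraries, and single libraries give little precision there. The coefficient of variation of the CPM was 109% in PFC CTR and 140% in PFC mCRS. Counting error alone at the mean count would give 19.1% and 21.8%, and the source of the further spread was not tested. In the NAc every library held reads, from 16.3 to 167 CPM with a median of 76.1 in CTR and from 21.9 to 266 CPM with a median of 84.4 in mCRS. The regions overlapped only at their edges, with 14 of 16 NAc libraries above the highest PFC library in either treatment. The fold difference was 8.20 in CTR (interval 3.34 to 20.1, log2 fold change 3.04 ± 0.65 SE, FDR = 0.000815) and 8.99 in mCRS (interval 3.52 to 23.0, FDR = 0.000803).

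Adora2a, the adenosine receptor that raises cAMP in indirect pathway neurons, had the largest fold difference of the 8 genes in CTR. PFC CTR libraries ran from 0 to 45.9 CPM with a median of 5.32, and PFC mCRS libraries from 0 to 33.5 CPM with a median of 6.19. There was no read in 3 of the 15 PFC CTR and 4 of the 15 PFC mCRS libraries, which allows up to 1.62 and 2.74 CPM. NAc CTR libraries ran from 4.47 CPM in NAc CTR 7, or 50.0 CPM in the next lowest, to 222 CPM with a median of 106. NAc mCRS libraries ran from 38.9 to 162 CPM with a median of 75.2. All 16 NAc mCRS libraries lay above all 15 PFC mCRS libraries, and so did the NAc CTR libraries above those of the PFC once NAc CTR 7 was left out. The NAc was 10.2-fold higher in CTR (interval 4.53 to 22.8, log2 fold change 3.35 ± 0.58 SE, FDR = 3.39e-05) and 8.40-fold higher in mCRS (interval 3.55 to 19.8, FDR = 0.000347).

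Downstream of the receptors, Gnal encodes the G protein that links Drd1 and Adora2a to adenylyl cyclase. It ran from 26.9 to 245 CPM with a median of 184 in PFC CTR and from 12.6 to 254 CPM with a median of 146 in PFC mCRS. In the NAc the medians were 552 CPM in CTR (178 to 921) and 513 CPM in mCRS (253 to 1128). The difference was 3.28-fold in CTR (interval 2.45 to 4.39, log2 fold change 1.71 ± 0.21 SE, FDR = 1.10e-08) and 3.30-fold in mCRS (interval 2.45 to 4.45, FDR = 1.35e-08), the smallest of the 8 in both. By log2 fold change toward the NAc, Gnal still ranked 188 of 9932 genes in CTR.

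Adcy5 encodes the main adenylyl cyclase of the striatum. Its PFC libraries had medians of 120.0 CPM in CTR (55.9 to 256) and 126 CPM in mCRS (59.6 to 254). NAc CTR libraries had a median of 564 CPM (225 in NAc CTR 7, 288 in the next lowest, 827 in the highest). NAc mCRS libraries had one of 473 CPM (295 to 854). All 16 NAc libraries exceeded all 15 PFC libraries in mCRS, and 15 of 16 did in CTR. The NAc was 3.99-fold higher in CTR (interval 3.04 to 5.22, log2 fold change 2.0 ± 0.19 SE, FDR = 1.19e-11) and 3.93-fold higher in mCRS (interval 3.02 to 5.12, FDR = 6.36e-12). By p-value Adcy5 ranked 18 of 9932 genes in CTR and 12 of 9452 in mCRS, ahead of the other 7 genes.

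Pde10a, which ends the cyclic nucleotide signal, had medians of 77.3 CPM in PFC CTR (3.95 to 238) and 79.4 CPM in PFC mCRS (16.2 to 197). In the NAc they were 456 CPM in CTR (36.6 to 1033) and 340 CPM in mCRS (125 to 588). Without scaling for depth, the library with the most Pde10a reads held 20.3% of them in NAc CTR (NAc CTR 10) and 24.7% in PFC mCRS. The NAc was 5.51-fold higher in CTR (interval 3.55 to 8.54, log2 fold change 2.46 ± 0.32 SE, FDR = 3.65e-08) and 4.24-fold higher in mCRS (interval 2.99 to 6.01, FDR = 6.27e-09).

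Ppp1r1b, whose product DARPP-32 integrates dopamine and glutamate signals at protein phosphatase 1, had medians of 131 CPM in PFC CTR (15.1 to 241) and 121 CPM in PFC mCRS (6.96 to 343). NAc CTR libraries had a median of 867 CPM, with 54.1 CPM in NAc CTR 7, 401 CPM in the next lowest and 1495 CPM in the highest. NAc mCRS libraries had a median of 825 CPM (418 to 1300). The 2 regions did not overlap in mCRS. The NAc was 6.79-fold higher in CTR (interval 4.55 to 10.1, log2 fold change 2.76 ± 0.29 SE, FDR = 9.27e-11) and 6.60-fold higher in mCRS (interval 4.52 to 9.63, FDR = 2.29e-11).

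Rgs9 ran from 1.83 to 69.4 CPM with a median of 24.4 in PFC CTR and from 0.415 to 87.9 CPM with a median of 8.39 in PFC mCRS. Its reads were few in PFC mCRS, where 4 of 15 libraries held 3 or fewer and the coefficient of variation of the CPM was 130%. In the NAc the medians were 227 CPM in CTR (27.6 to 424) and 175 CPM in mCRS (81.4 to 512). In mCRS 15 of 16 NAc libraries lay above the highest PFC library. The NAc was 7.74-fold higher in CTR (interval 4.63 to 12.9, log2 fold change 2.95 ± 0.37 SE, FDR = 2.08e-08) and 8.41-fold higher in mCRS (interval 4.30 to 16.4, FDR = 3.76e-06).

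**Figure D2:**
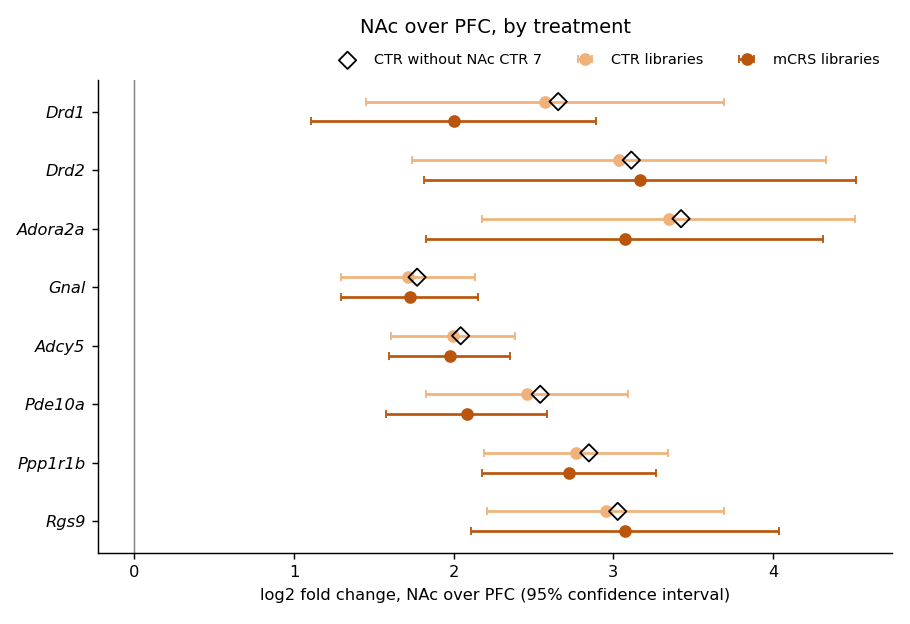
Log2 fold change of the NAc over the PFC (x axis) for each of the 8 genes (y axis), in CTR libraries (light points) and mCRS libraries (dark points), with 95% confidence intervals from edgeR; open diamonds give the CTR value without NAc CTR 7. All intervals lie above 0, and the log2 fold changes in CTR run from 1.71 for Gnal to 3.35 for Adora2a.

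Complete separation of the regions was rare. In CTR, 0 of the 8 genes had all NAc libraries above all PFC libraries, as had 12 of the 9932 genes tested (0.121%). Without NAc CTR 7 the count was 5, namely Adora2a, Ppp1r1b, Adcy5, Gnal and Pde10a, beside 21 genes tested (0.211%). In mCRS it was 3, namely Adora2a, Ppp1r1b and Adcy5, beside 12 of 9452 (0.127%).

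Other genes of the same cascade were taken from 7 lists of receptors, G protein subunits, adenylyl cyclases, phosphodiesterases, protein kinase A subunits, partners of DARPP-32, and RGS proteins with their partners. Of 73 listed genes 65 had counts. In CTR, 7 of the 63 tested were higher in the NAc and 8 were lower, and in mCRS 10 of 62 were higher and 9 lower. Their median log2 fold change was -0.07 in CTR and 0.003 in mCRS. Called in both treatments with the same sign were 12 genes, 6 in each direction.

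Among the other receptors, 6 of 12 were tested and 3 were called in both treatments. Gpr6, an orphan receptor of indirect pathway neurons, was higher in the NAc by 2.97 ± 0.81 on the log2 scale in CTR (SE, FDR = 0.0128). Cnr1, the cannabinoid receptor, had a log2 fold change of -1.30 ± 0.24 in CTR (SE) and was thus lower in the NAc. Between the receptors and the cyclase, Gng7, the gamma subunit that assembles with the product of Gnal, was higher by 2.07 ± 0.27 in CTR (SE, FDR = 7.18e-08) and by 2.19 ± 0.26 in mCRS. Gng3, a gamma subunit of neurons at large, had -0.48 ± 0.15 in CTR (SE, FDR = 0.047) and -0.79 ± 0.16 in mCRS. None of the 6 other adenylyl cyclases tested in CTR was called higher in the NAc at an FDR below 0.05, and 2 were called lower. Adcy1, a calcium-stimulated cyclase, was lower there in both treatments (-2.28 ± 0.20 on the log2 scale in CTR and -2.04 ± 0.30 in mCRS, SE).

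The phosphodiesterases split in the same manner. Pde1b, a calmodulin-dependent enzyme, was higher in the NAc by 1.74 ± 0.23 on the log2 scale in CTR (SE, FDR = 6.24e-08), while its relative Pde1a was lower, with -1.58 ± 0.20 (SE). The other 8 phosphodiesterases tested in CTR did not pass. Of the protein kinase A subunits Prkar1b, a regulatory subunit, was lower in both treatments (-0.87 ± 0.13 in CTR and -0.58 ± 0.13 in mCRS, SE). Of the DARPP-32 partners, Arpp21, another phosphoprotein of the same neurons, was higher (0.74 ± 0.18 in CTR, SE, FDR = 0.00413). Of the RGS proteins, Rgs8 was higher (1.95 ± 0.47 in CTR, SE, FDR = 0.00364) and Rgs4 lower (-0.68 ± 0.18 in CTR, SE, FDR = 0.0113).

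Markers of some cell types in the tissue differed between the regions as well. Of 18 striatal markers tested in CTR that are not among the 8 genes, 13 were higher in the NAc and 0 lower, and in mCRS 15 of 18 were higher. Of 14 cortical excitatory markers 10 were lower and 1 higher in CTR, and in mCRS 9 of 12 were lower. Of 10 oligodendrocyte markers 6 were higher in CTR and 7 in mCRS. Of 8 astrocyte markers 1 was higher in each treatment, and of 8 microglial markers 0 passed in either. The part of cell composition in the levels of the 8 genes was not tested.

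Chronic stress was then compared with control within each region. In the PFC, edgeR called 0 of 8916 genes at an FDR below 0.05 (0%), and 312 had an unadjusted p below 0.05 (3.50%). Of the 8 signalling genes 0 passed either threshold, and 3 of 8 had a log2 fold change above 0. The values ran from -0.17 for Rgs9 to 0.58 for Drd1. The intervals were wide for the genes with few reads. For Drd1 the 95% confidence interval of the log2 fold change reached from -1.0 to 2.15, and for Drd2 from -2.12 to 1.95. For Adcy5 and Gnal, with more reads, it reached from -0.56 to 0.47 and from -0.59 to 0.48. These intervals are of single genes, so they do not give the smallest change that a test over all genes would call. On simulated data edgeR recovered 7 of 67 stress changes at a log2 fold change of 1 in the PFC. Those changes were placed in genes drawn at random from the genes tested, so this is not a rate for the 8 genes.

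In the NAc, 1 of 10141 genes passed an FDR of 0.05 (0.00986%) and 207 had an unadjusted p below 0.05 (2.04%). Of the 8 genes 0 passed either threshold, with 2 of 8 above 0. Pde10a had the smallest p-value of them, with a log2 fold change of -0.37 ± 0.21 (SE, 95% confidence interval -0.78 to 0.04, p = 0.0763, FDR = 1.0 in edgeR). Without NAc CTR 7, the library with the lowest Pde10a level of its group, it was -0.45 ± 0.17 (SE, unadjusted p = 0.00992, FDR = 1.0). Adora2a had -0.41 ± 0.29 (SE, interval -1.0 to 0.17), and -0.49 ± 0.26 without NAc CTR 7. The libraries of both treatments overlapped for both genes over most of their range. The other 6 genes lay between -0.08 and 0.08, and the interval of Adcy5 reached from -0.38 to 0.22, that of Gnal from -0.38 to 0.28, that of Ppp1r1b from -0.31 to 0.47 and that of Drd1 from -0.58 to 0.56. Without NAc CTR 7 the value of Drd2 moved from 0.04 to -0.03.

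**Figure D3:**
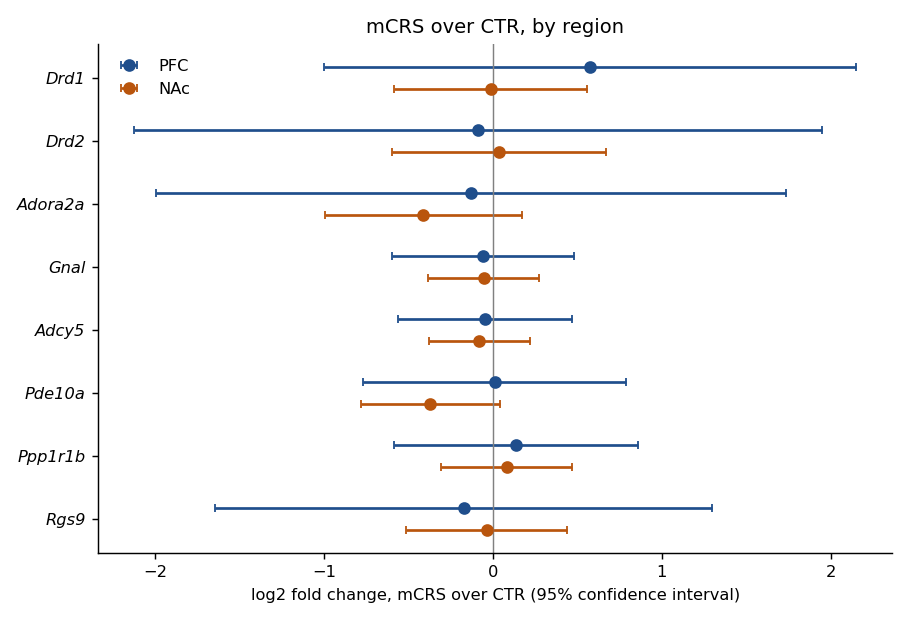
Log2 fold change of mCRS over CTR libraries (x axis) for each of the 8 genes (y axis), in the PFC (blue) and the NAc (orange), with 95% confidence intervals from edgeR. All 16 intervals include 0, and those of the PFC are the wider ones, most of all for Drd1, Drd2, Adora2a and Rgs9.

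The effect of stress was compared between the regions as an interaction over all 62 libraries. One gene of 11025 passed an FDR of 0.05 (0.00907%), and 0 of the 8 genes did. Their differences of effect, PFC minus NAc, ran from -0.13 for Drd2 to 0.57 for Drd1 on the log2 scale, with standard errors of 0.26 for Adcy5 to 0.89 for Drd2. For Pde10a the difference was 0.37 ± 0.40 (SE, 95% confidence interval -0.43 to 1.18). A region-specific response of the size of these errors could not be told from none.

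None of the other cascade genes changed with stress at an FDR below 0.05. Of 56 tested in the PFC 5 had an unadjusted p below 0.05, and of 64 tested in the NAc 2 did. Over the marker lists, 0 of 18 striatal markers and 0 of 8 cortical markers passed in the NAc, and the one gene called in the NAc belonged to the choroid plexus list, in which NAc mCRS 10 stood apart. Detection differed somewhat between the treatment groups, with counts for 87.1% ± 4.42 (SD, n = 15) of the listed genes in PFC CTR and 82.3% ± 6.22 (SD, n = 15) in PFC mCRS libraries, and with this share as a covariate 0 of the 8 genes passed in either region.

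The spread between libraries of one group is large in relation to the number of reads. The coefficient of variation of the CPM was 30.9% for Adcy5 and 35.1% for Gnal in NAc CTR, 28.6% and 38.2% in NAc mCRS, and 42.9% and 40% in PFC CTR. It was 114% for Drd1 and 109% for Drd2 in PFC CTR libraries, against 43.0% and 56.1% in NAc CTR. On the log2 scale, the SD of Drd1 fell from 1.82 to 0.53 in NAc CTR when NAc CTR 7 was left out, and that of Ppp1r1b from 1.10 to 0.52.

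Within the NAc the 8 genes varied together across libraries. Over the 32 NAc libraries, with each group's mean removed from the log2 CPM, Pearson's r between pairs of the genes had a median of 0.55 and lay between 0.26 and 0.86, and 28 of 28 pairs were above 0. Much of this rested on NAc CTR 7. Without it the median r was 0.26 over 31 libraries, the range -0.12 to 0.68, and 27 of 28 pairs were above 0. The closest pair was then Adcy5 and Rgs9 (r = 0.68, Spearman's rho = 0.61), followed by Ppp1r1b and Rgs9 (r = 0.51) and by Ppp1r1b and Drd1 (r = 0.51). Drd2 and Adora2a, which belong to the same neurons, had the lowest, with r = -0.12. In the 30 PFC libraries the median was 0.30, with 22 of 28 pairs above 0, and the closest pair was Ppp1r1b and Adcy5 (r = 0.63). These values describe libraries that share normalization and tissue composition.

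Genes most like the group were sought by the correlation of each of 10133 other genes with the mean of the 8 over the NAc libraries. Genes among the top 5 included Arpp21 (r = 0.92), Penk (r = 0.91), the precursor of enkephalin, Pde1b (r = 0.91) and Pcp4l1 (r = 0.90), beside a 95th percentile of 0.40 over all those genes. Without NAc CTR 7 these 4 had r between 0.65 and 0.76 and ranked 3, 11, 10 and 4, and Tac1, the precursor of substance P, came first (r = 0.78). Cdk17, a kinase gene, followed with the same rounded value. Tac1 and Cdk17 were looked up after this library had been seen to stand apart.

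Across NAc libraries the summed level of the 8 genes correlated positively with the markers of striatal neurons and with those of cortical excitatory neurons, and was lower where hypothalamic markers were higher. Against the sum of the 19 other striatal markers, r on the log2 scale was 0.96 over 32 NAc libraries (rho = 0.90), 0.88 without the 2 libraries farthest from the median of those markers, and 0.90 without NAc CTR 7. In the 30 PFC libraries it was 0.54 (rho = 0.57). Against the cortical excitatory markers r was 0.62 in the NAc (rho = 0.50), 0.43 without the 2 farthest, 0.38 without NAc CTR 7, and 0.22 in the PFC. Against the summed hypothalamic markers r was -0.73 (rho = -0.84), -0.71 without the 2 farthest, and -0.80 without NAc CTR 7. Against oligodendrocyte markers r was -0.46 in the NAc, -0.57 without NAc CTR 7, and 0.75 in the PFC (rho = 0.79, 30 libraries). Against total counts r was 0.09 in the NAc and 0.20 in the PFC. NAc mCRS 2, for example, had 1836 CPM of the 8 genes and 755 CPM of the hypothalamic markers, while NAc mCRS 3 had 3759 CPM and 21.9 CPM. NAc mCRS 7, with 2914 CPM and 835 CPM, departed from this order. Sums in CPM share one total per library, and the part of dissection in these values was not tested.

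**Figure D4:**
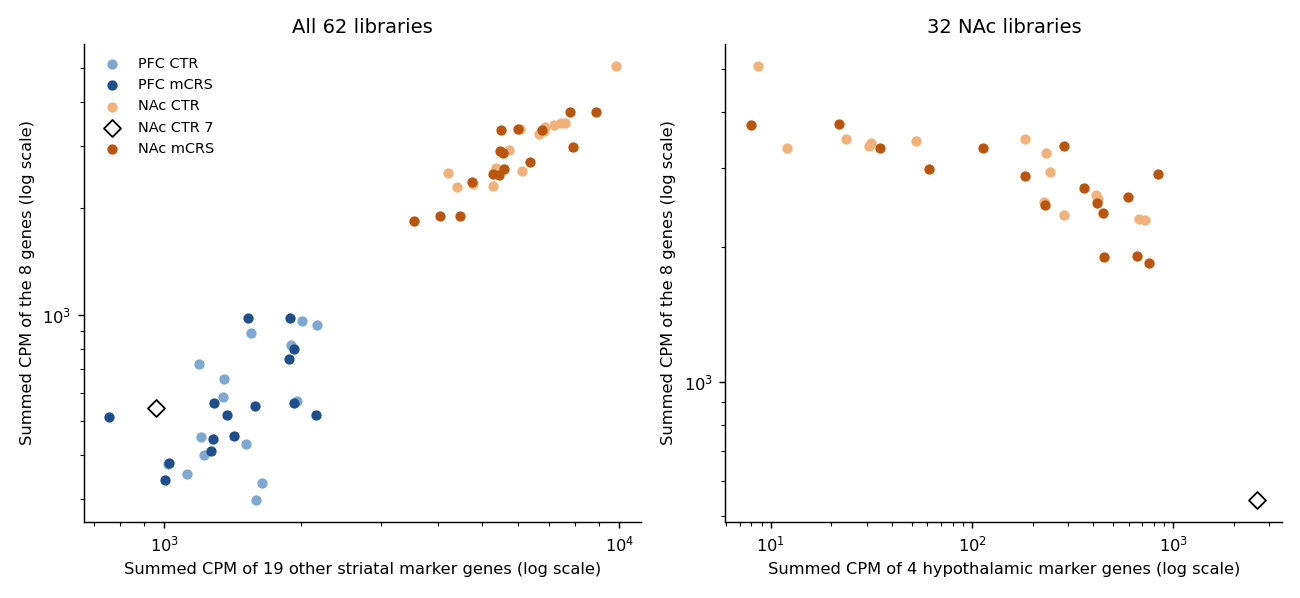
Summed CPM of the 8 genes (y axis, log scale) against the summed CPM of 19 other striatal markers in all 62 libraries (left) and of 4 hypothalamic markers in the 32 NAc libraries (right, log scales), with libraries coloured by group and NAc CTR 7 as an open diamond. On the left PFC and NAc libraries form separate clouds and NAc CTR 7 lies in that of the PFC, at 543 CPM, and on the right the sum is lower where hypothalamic markers are higher (r = -0.73).

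The balance of the 2 dopamine receptors in the NAc was followed as the log2 ratio of Drd1 to Drd2 within each library. Only its spread between libraries was read. In NAc CTR it ran from -3.85 in NAc CTR 7, with 1 read of Drd1 and 40 of Drd2, to 1.99, with a median of 1.07 and a mean of 0.59 ± 1.38 (SD, n = 16). Without NAc CTR 7 the mean was 0.88 ± 0.73 (SD, n = 15) and the lowest value -0.99. In NAc mCRS it ran from -1.33 to 2.43 with a median of 0.95 and a mean of 0.83 ± 1.04 (SD, n = 16). The 2 groups overlapped almost entirely.

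**Figure D5:**
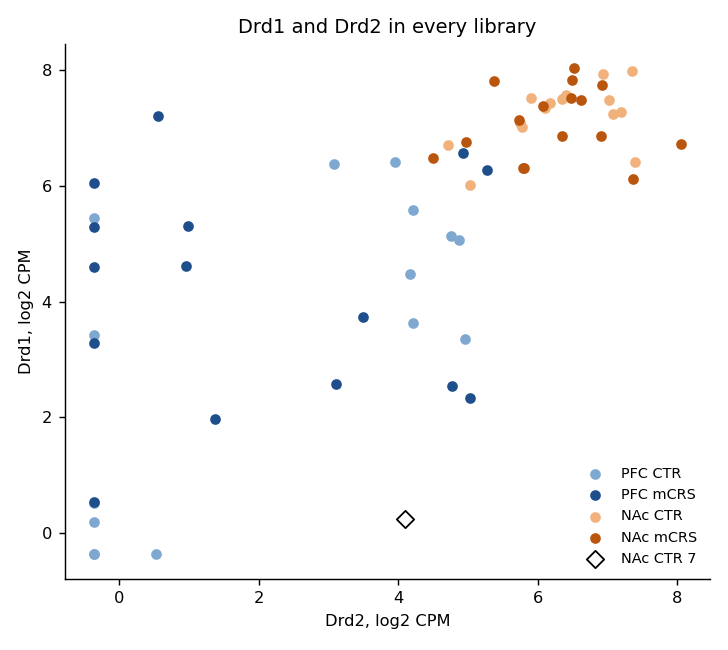
Level of Drd1 (y axis) against that of Drd2 (x axis), both in log2 CPM, in every library coloured by group, with NAc CTR 7 as an open diamond. NAc libraries of both treatments fill one corner, with Drd1 at 63.6 CPM or more in all but NAc CTR 7, and PFC libraries scatter down to the level of 0 reads in both genes.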

How the data were processed

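Counts per gene of 62 BRB-seq libraries were used as deposited. The authors mapped reads with STAR to GRCm38 and counted uniquely mapped reads with HTSeq (0.9.1 in the submitters' processing notes), and they left out PFC samples that had sequenced poorly. Use of molecular identifiers is not stated, so read copies may be counted and counts give counting error only. Totals ran from 945286 to 4857359 counts.

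Each contrast was fitted with edgeR 4.0.16 (R 4.3.3): TMM factors, filterByExpr with the groups, then quasi-likelihood tests, Benjamini-Hochberg adjusted over all genes tested, with a threshold of 0.05. Confidence intervals are 95%. Levels are CPM and log2 CPM (prior count 2). Libraries were treated as independent. All pairs of libraries within a group differed far beyond sampling noise (chi-square per degree of freedom of at least 44.6). Libraries with the same replicate number in 2 groups did not deviate together, so the numbers were not used as pairs. This does not exclude that some PFC and NAc libraries come from the same mouse. On simulated data edgeR recovered 42 of 67 changes at a log2 fold change of 2 in CTR between regions (3 false calls over 9663 genes), 36 of 67 for stress in the PFC (2 false, 8597 genes) and 44 of 67 in the NAc (0 false, 9907 genes). At a log2 fold change of 1 it recovered 10 of 67 between regions, 7 of 67 in the PFC and 17 of 67 in the NAc. For the difference of the stress effect between regions it recovered 12 of 67 at 2 and 1 of 67 at 1.

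The genes and all lists were chosen with earlier results of these data known. The rule named each of the 9 genes in the table, up to 3 genes of each cascade list called in both region tests with one sign, any cascade gene called for mCRS, and the 5 genes most like the mean of the 8 in the NAc. One gene that this rule names is not reported here. Further genes named are Tac1 and Cdk17, and Avp, Oxt, Trh and Gal as list members. Alternatives were DESeq2 1.42.0, RLE normalization, no filter, a stricter filter (10 counts in 50% of libraries), a single fit of the 62 libraries, a covariate for the share of listed genes detected, the replicate number as a block, libraries numbered 1 to 8 or 9 and above, each library left out, and a prior count of 0.5. The overlap counts and correlations without NAc CTR 7 were added after its values had been seen.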

Additional observations from a re-analysis of the deposited data

How the results depend on the processing

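All 8 genes kept a higher level in the NAc under every alternative run, and with any one library left out 8 of 8 were called in CTR and in mCRS. Calls were lost in the smaller sets. Among libraries numbered 1 to 8, 5 of 8 were called in CTR, where Drd1 (log2 fold change 2.23), Drd2 (2.71) and Adora2a (2.81) missed the threshold, and Adora2a (2.68) missed it in mCRS. Among those numbered 9 and above, Drd1 (1.37) and Drd2 (3.03) missed it in mCRS. Over all genes the calls between regions were 192 in CTR and 213 in mCRS for numbers 1 to 8, 300 in mCRS for numbers 9 and above, and 903 in mCRS with DESeq2. These sets hold fewer libraries, and the cause of DESeq2's larger number was not tested.

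The stress effect on the 8 genes was called in 0 of 8 under every alternative in either region, and the sign of several small values turned. In the PFC, Pde10a was -0.000292 without a filter. With the detected share of genes added as covariate, Adora2a was 0.23, Gnal 0.021 and Pde10a -0.044. For numbers 1 to 8, Drd1 was -0.78 and Rgs9 0.71, and for 9 and above Adcy5 was 0.13, Gnal 0.053 and Pde10a -0.12. In the NAc, Drd1 was 0.075 and Drd2 -0.079 with the covariate, Drd1 was 0.20, Gnal 0.25 and Rgs9 0.087 for numbers 1 to 8, and Drd2 was -0.12 and Ppp1r1b -0.10 for 9 and above. With one library left out, the PFC values ran from -0.42 to 0.13 for Drd2, from -0.43 to 0.25 for Adora2a, from -0.055 to 0.24 for Ppp1r1b, from -0.16 to 0.042 for Adcy5, from -0.14 to 0.025 for Gnal and from -0.14 to 0.20 for Pde10a. Those of the NAc ran from -0.097 to 0.063 for Drd1, from -0.17 to 0.13 for Drd2, from -0.17 to 0.017 for Gnal and from -0.19 to 0.072 for Rgs9. The cause of these turns was not tested.

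Over all genes, calls for stress in the PFC came to 5 with DESeq2, 1 without a filter, 5 with all 62 libraries in one fit, 1 for numbers 1 to 8, and 0 to 2 with one library left out (2 without PFC CTR 14). In the NAc they came to 0 with DESeq2, 2 without a filter, 2 with all 62 libraries, 0 with the covariate, 0 for numbers 1 to 8, and 0 to 1 with one library left out. For the difference between regions they came to 0 with the stricter filter, 0 for either set of numbers, and 1 to 7 with one library left out (7 without PFC mCRS 2 and 6 without PFC mCRS 8).

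Libraries with the same number in 2 groups did not deviate together, with correlations of -0.03 to 0.05 and 0 pairs above 0.1, so the numbers were not taken as pairs. With the replicate block 596 genes were called between regions in CTR and 582 in mCRS, 1 for stress in the PFC, 0 in the NAc and 0 for the difference between regions, and in the NAc Drd1 was 0.015 and Rgs9 0.031. Few reads and a wide replicate spread limit Drd1, Drd2, Adora2a and Rgs9 in the PFC.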
